A study of Xenopus laevis with 12 samples.

Results

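The Snail family genes snai1.S and snai2.L were followed across 12 arrays of Xenopus laevis animal caps, explants of blastula ectoderm. The genes were chosen by symbol: every probe set that the platform annotation assigns to snai1.S or snai2.L was taken, which is 1 probe set each, and they are 2 of the 11303 genes named on the array. The array also carries 1 probe set for snai2.S, the second copy (homeolog) of snai2 in this allotetraploid frog. It is not among the chosen genes, and its values stand beside theirs for comparison. In the RefSeq annotation of the Xenopus laevis assembly 10.1, snai2.L lies on chromosome 6L and snai2.S on 6S, whereas snai1.S is placed on chromosome 9_10L in spite of its suffix. How far the probes of one Snail gene also bind transcripts of another was not tested.

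Snail proteins are zinc finger repressors. They bind E-box sequences with their zinc fingers and recruit corepressors through an N-terminal SNAG domain, and they are known for silencing E-cadherin when epithelial cells become migratory. In the frog ectoderm both genes are switched on at the border between neural plate and epidermis, where snai1 comes up before snai2, and they mark and help to specify the neural crest; snai1 is also made in early mesoderm. Wnt signals together with reduced BMP signalling induce them.

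Embryos were injected in the animal pole at the 2-cell stage, caps were dissected at stage 9, and RNA was taken at stage 15, the neurula stage when crest is being specified. The incubation temperature given is the same for all samples. The 4 groups of 3 arrays received lacZ mRNA (a bacterial enzyme, used as the control), kctd15 mRNA, wnt3a and chordin mRNAs (wnt3a+chordin below, a Wnt ligand with a secreted BMP antagonist), or wnt3a, chordin and kctd15 mRNAs (wnt3a+chordin+kctd15). Kctd15 is a BTB domain protein known in fish and frog to restrict the neural crest, and the series title asks for its targets. All caps, the controls included, came from injected embryos, and neither the mRNA amounts nor the number of embryos behind a sample is stated in the labels. Whether replicates are from separate embryo batches is not stated either, so p values measure only the spread among these samples. Levels are log2 expression values of a probe set, differences are on the same log2 scale with a standard error (SE) from limma, and a difference was called at an adjusted p (Benjamini-Hochberg over 32475 probe sets) under 0.05.

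As a check on the labels, probe sets of the injected genes were inspected. The wnt3a.S probe set lay at 12.02 to 12.97 in the arrays labelled wnt3a and at 3.87 to 6.43 in the others. The probe set of kctd15.L went against the labels, at 3.52 to 6.77 in the 6 arrays labelled kctd15 and at 10.22 to 11.22 in the other 6. Where its probes lie relative to the injected mRNA is not known here, so this probe set may not read that mRNA, and every difference with kctd15 below rests on the labels alone. The chordin probe set chrd.1.S was at 9.37 in lacZ replicate 3 and at 9.08 in kctd15 replicate 3, within the 8.50 to 11.14 of the arrays injected with chordin, against 3.79 to 5.23 in the other 4 arrays without it. Differences were therefore also computed without that pair of arrays. Epidermal markers, which caps without inducers are known to express, had a mean of 12.49 to 12.79 in the lacZ arrays, with 12 of 12 above the array median.

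snai1.S was at 9.80, 9.95 and 10.28 in the lacZ arrays 1, 2 and 3. It was at 5.99, 5.38 and 7.83 in the arrays labelled kctd15. These lay below every lacZ array, with replicate 3 the highest of them. It was at 12.42, 12.53 and 12.20 with wnt3a+chordin, and at 10.99, 10.47 and 11.81 in the arrays labelled wnt3a+chordin+kctd15. The 4 groups did not overlap in snai1.S: the means fell in the order wnt3a+chordin (12.38 ± 0.17, SD, n = 3), wnt3a+chordin+kctd15 (11.09 ± 0.68), lacZ (10.01 ± 0.25) and kctd15 (6.40 ± 1.28). Of these neighbours in the order only lacZ and kctd15 differed past the threshold, as given below. How many of all probe sets had 4 groups apart is not given here.

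snai2.L was at 6.81, 5.71 and 6.58 in the lacZ arrays. It was at 3.43, 3.47 and 3.09 in the arrays labelled kctd15, close to the lowest values of the whole table (2.38). At this level between 1.35% and 5.09% of the probe sets of the same array were lower, and whether the signal stood above background is not given in the table. It was at 11.71, 10.25 and 11.34 with wnt3a+chordin. The arrays labelled wnt3a+chordin+kctd15 read 4.86, 6.44 and 8.91, a spread of 4.05 within 1 group, from below the lowest lacZ array to above the highest. Group means were 11.10 ± 0.76 (SD, n = 3) with wnt3a+chordin, 6.74 ± 2.04 with wnt3a+chordin+kctd15, 6.37 ± 0.58 with lacZ and 3.33 ± 0.21 with kctd15, the same order as for snai1.S. The pair in the middle, wnt3a+chordin+kctd15 and lacZ, overlapped. Over all 12 arrays snai1.S ran through 7.15 log2 units and snai2.L through 8.62, more than 99.6% and 99.9% of the probe sets.

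**Figure D1:**
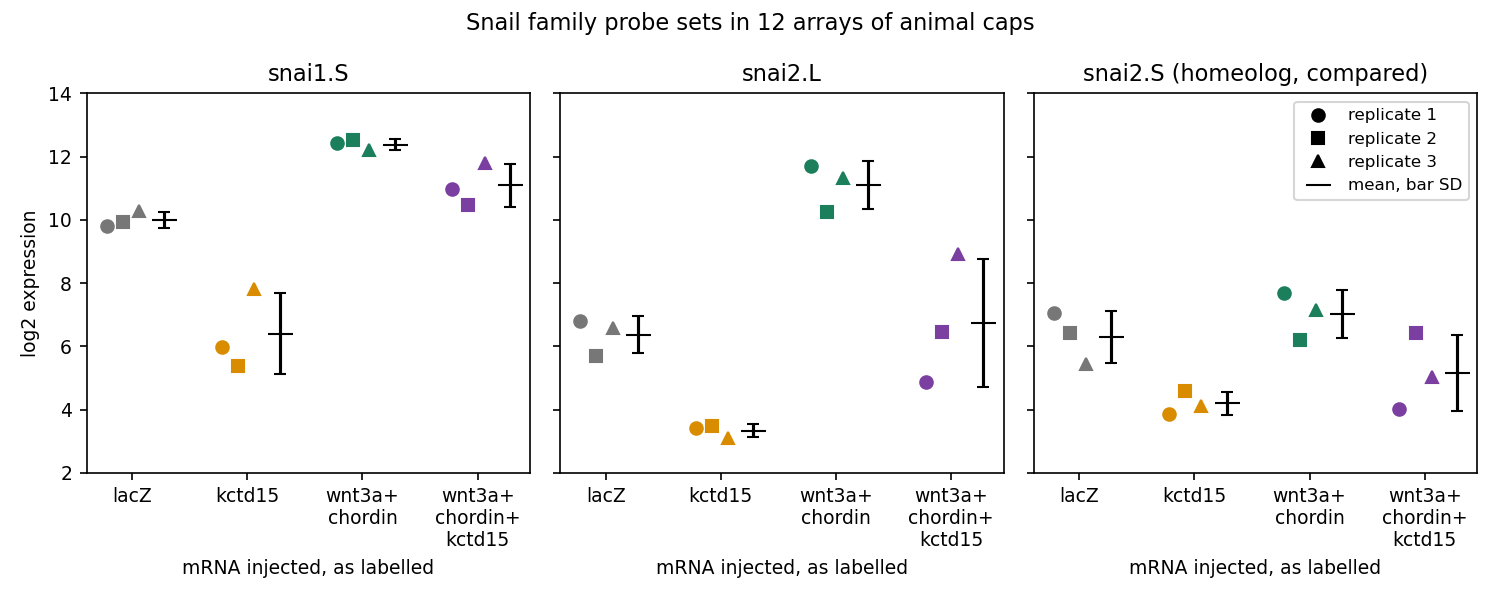
Log2 expression of the probe sets of snai1.S, snai2.L and the homeolog snai2.S (y axis) in each array of the 4 injection groups (x axis), with symbols for replicate number and the group mean with its SD at the right of each group. Both chosen genes are highest with wnt3a+chordin (12.38 and 11.10) and lowest in the arrays labelled kctd15 (6.40 and 3.33), and snai2.L spreads from 4.86 to 8.91 in the arrays labelled wnt3a+chordin+kctd15.

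The comparison of wnt3a+chordin with lacZ shows what the inducers of crest did to the Snail genes in caps. Both were higher: snai2.L by 4.73 (SE 0.81, 26.6-fold, 95% confidence interval 7.62 to 92.9, limma adjusted p = 0.000895) and snai1.S by 2.37 (SE 0.53, 5.17-fold, 2.27 to 11.8, adjusted p = 0.00464). Thus 2 of 2 members rose, where 24.2% of all probe sets were called higher, 17.1% lower and 41.3% in either direction. Subtracting arrays of equal replicate number gave 4.89, 4.54 and 4.77 for snai2.L, a narrow range, and 2.62, 2.58 and 1.92 for snai1.S. In both genes each wnt3a+chordin array lay above each lacZ array, as it did for 31.8% of probe sets. Only 0.243% of probe sets had a larger positive difference than snai2.L, and 1.96% one larger than snai1.S. Both calls held with any single array omitted and without the pair of arrays high in chordin. In these bulk samples fewer cells of a type and less RNA per cell cannot be told apart, here and below.

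The question of the series title, what Kctd15 does in caps turned towards crest, is met by setting the arrays with all 3 mRNAs against those with wnt3a+chordin alone. snai2.L was lower in the arrays labelled kctd15 by 4.36 (SE 0.81, 20.5-fold, 95% confidence interval 5.88 to 71.7, limma adjusted p = 0.0457). snai1.S was lower by 1.29 (SE 0.53, adjusted p = 0.67), which was not called. So 1 of 2 members passed, where 0.647% of probe sets were called, 0.505% lower and 0.142% higher. By replicate number the difference of snai2.L was -6.85, -3.80 and -2.43, and that of snai1.S was -1.42, -2.05 and -0.39. All 3 pairs of arrays pointed down in both genes, with the smallest difference in replicate 3. In both genes the groups did not overlap, with a gap of 1.34 for snai2.L and of 0.39 for snai1.S, which held in this direction for 5.24% of probe sets. Only 0.00616% of probe sets, 2 in number, had a more negative difference than snai2.L. The call of snai2.L was a narrow one. It was lost in 11 of 12 fits that left out 1 array, with adjusted p from 0.0578 to 0.188 (the last without wnt3a+chordin replicate 1), and it was kept only without wnt3a+chordin+kctd15 replicate 3 (-5.45, adjusted p = 0.00448). It was also lost when only the 6 arrays of these groups were fitted (adjusted p = 0.304) and without the pair of arrays high in chordin (adjusted p = 0.112). The size of the difference stayed between -5.45 and -3.42 with any 1 array left out.

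In caps without inducers, the arrays labelled kctd15 were compared with the lacZ arrays. snai1.S was lower by 3.61 (SE 0.53, 12.2-fold, 95% confidence interval 5.38 to 27.8, limma adjusted p = 0.00288). snai2.L was lower by 3.04 (SE 0.81) at an adjusted p = 0.0515, just beyond the threshold. No fold is given for it, since its arrays labelled kctd15 lie near the lowest values of the table and are not shown to be above background, which limits how far a fall can be read. With the replicate number as a block in the fit it was called (adjusted p = 0.0359). In the fit without the block 1 of 2 members fell, with the block 2 of 2, where 6.99% of probe sets were called without the block (4.31% lower, 2.68% higher) and 15.4% with it. snai1.S had replicate differences of -3.81, -4.57 and -2.45, and snai2.L of -3.38, -2.24 and -3.49. In both genes all 3 arrays labelled kctd15 were below all lacZ arrays, as in 11.5% of probe sets. The call of snai1.S held with each single array left out (highest adjusted p = 0.0155). The difference of snai2.L passed when wnt3a+chordin+kctd15 replicate 1 (adjusted p = 0.0173) or replicate 3 (adjusted p = 0.00588) was left out. Those arrays are outside this comparison and enter only the shared estimate of the spread.

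The inducers were also compared in the presence of kctd15 mRNA, as labelled. Between wnt3a+chordin+kctd15 and kctd15, snai1.S was higher by 4.69 (SE 0.53, 25.9-fold, limma adjusted p = 6.55e-05) and snai2.L by 3.41 (SE 0.81, adjusted p = 0.00633), the latter again measured from a level not shown to be above background and so given without a fold. Again 2 of 2 members were called, where 23.6% of probe sets were called higher and 42% in either direction. Replicate differences of snai1.S were 5.01, 5.10 and 3.98. Those of snai2.L were 1.43, 2.98 and 5.82, a wider spread that follows its 3 arrays labelled wnt3a+chordin+kctd15. In both genes the groups did not overlap, as in 27.8% of probe sets in this direction. This comparison shares its arrays with the others above.

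Against lacZ, the arrays with all 3 mRNAs had snai1.S higher by 1.08 (SE 0.53, 95% confidence interval -0.10 to 2.27, limma adjusted p = 0.135) and snai2.L higher by 0.37 (SE 0.81, -1.43 to 2.18, adjusted p = 0.762). Here 0 of 2 members were called by limma, 0 at an unadjusted p under 0.05 and 0 with the replicate block, where 41.9% of probe sets were called. Both intervals reach above 2 log2 units, so the levels are not shown to be equal. snai2.L differed by -1.95, 0.74 and 2.33 in the 3 replicate numbers, in both directions. snai1.S differed by 1.19, 0.52 and 1.53, all upwards, and its arrays did not overlap (29.6% of probe sets lay apart in this direction). Its difference was called without kctd15 replicate 3 (adjusted p = 0.0195) and without the pair of arrays high in chordin (1.22, adjusted p = 0.0245).

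**Figure D2:**
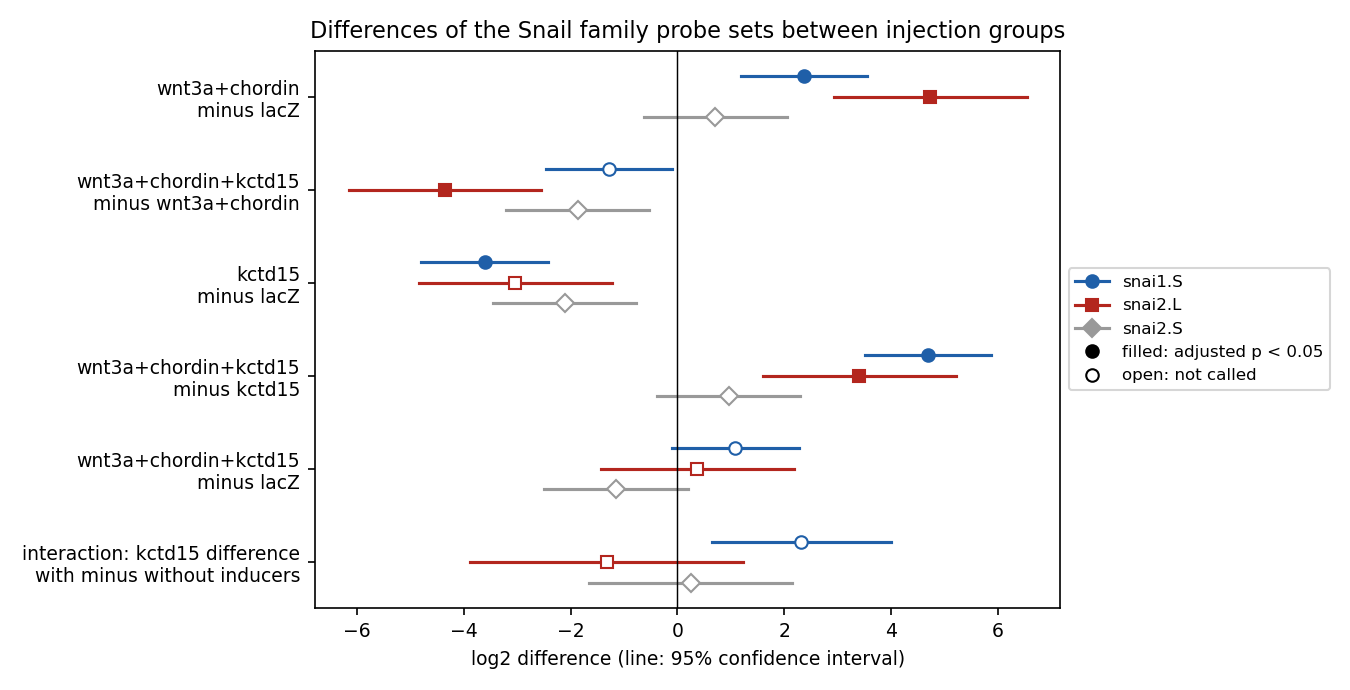
Log2 differences between injection groups (x axis, with 95% confidence intervals) for snai1.S, snai2.L and snai2.S in each of 6 comparisons (y axis), filled where the limma adjusted p was under 0.05. snai2.L moves by 4.73 with the inducers and by -4.36 when kctd15 is added to them, while snai1.S moves by 2.37 and -1.29.

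Whether the kctd15 difference depends on the inducers was tested as an interaction, the difference with wnt3a+chordin minus the difference without. For snai1.S it was 2.32 (SE 0.76, 95% confidence interval 0.65 to 4.00, limma adjusted p = 0.219): the fall was 3.61 in plain caps and 1.29 in induced caps. For snai2.L it was -1.32 (SE 1.15, -3.88 to 1.23, adjusted p = 0.806). The value of snai2.L subtracts a fall that ended near the lowest values of the table, so neither its size nor its sign can be set against that of snai1.S. Here 0 of 2 members were called by limma (1 at an unadjusted p under 0.05, snai1.S, and 0 with the replicate block), where 1.14% of probe sets were called. The interaction of snai1.S was 2.39, 2.52 and 2.06 in the 3 replicate numbers. It was called without kctd15 replicate 3, the array with the highest snai1.S of its group (3.04, adjusted p = 0.0141), and without the pair of arrays high in chordin (2.90, adjusted p = 0.0323). The interaction of snai2.L was -3.46, -1.56 and 1.05, with no common direction.

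The pair of genes was then set against each other by taking, in each array, the snai2.L value minus the snai1.S value and comparing that between groups. From lacZ to wnt3a+chordin snai2.L rose by 2.36 more than snai1.S, with 2.28, 1.96 and 2.85 in the replicate numbers. When kctd15 was added to the inducers it fell by 3.07 more, with -5.42, -1.75 and -2.05. In both comparisons the 3 arrays of one group lay apart from those of the other (two-sided exact permutation test, p = 0.1 and 0.25 after adjustment over 5 comparisons), and since 3 arrays against 3 cannot give less than 0.1, no such test here can reach 0.05. Between kctd15 and lacZ the difference in response was 0.58 (exact permutation p = 0.6), with replicate values of 0.43, 2.34 and -1.04. It was -1.28 between wnt3a+chordin+kctd15 and kctd15 (exact permutation p = 0.4) and -0.71 between wnt3a+chordin+kctd15 and lacZ (p = 0.7, exact permutation test). In these 3 comparisons the groups overlapped. Their adjusted values were 0.7, 0.667 and 0.7 in the order given (exact permutation test). Comparisons with the group injected with kctd15 alone carry the same limit from its low snai2.L values. The interaction of snai2.L minus that of snai1.S came to -3.65 (replicate values -5.85, -4.08 and -1.01), a value without a test. It takes in the fall of snai2.L that ended near the lowest values, so neither its size nor its sign is read.

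**Figure D3:**
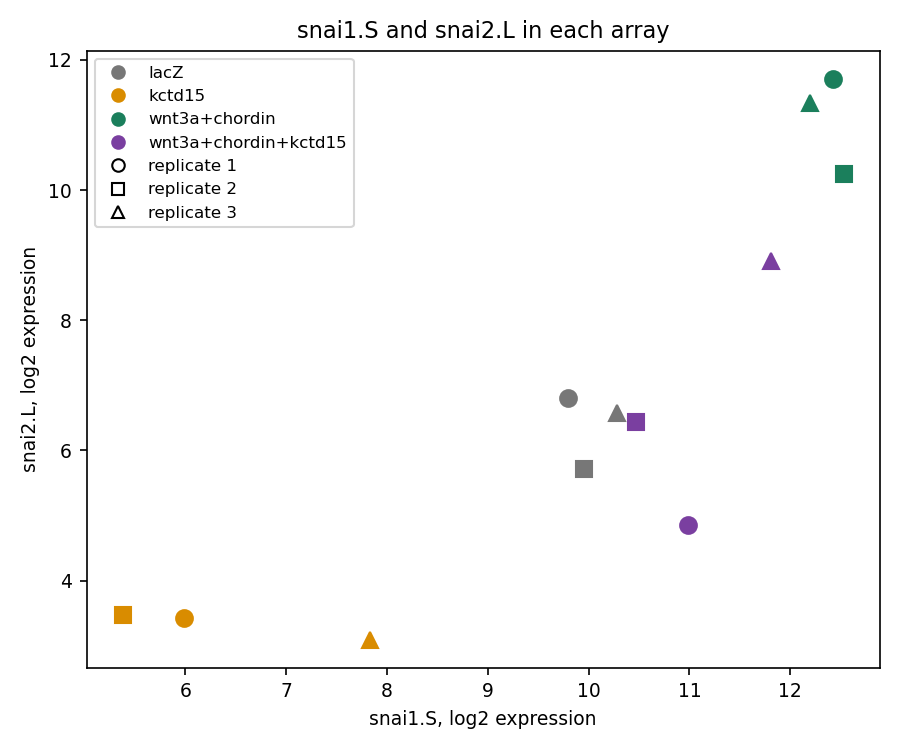
Log2 expression of snai1.S (x axis) against snai2.L (y axis) in each of the 12 arrays, coloured by injection group with a symbol for replicate number. The arrays labelled kctd15 span 5.38 to 7.83 in snai1.S at a nearly flat snai2.L (3.09 to 3.47), and those labelled wnt3a+chordin+kctd15 span 4.86 to 8.91 in snai2.L.

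Within groups, snai1.S had an SD of 0.17 with wnt3a+chordin and of 0.25 with lacZ, larger than that of 43.9% and 64.5% of probe sets there. It was loose in the arrays labelled kctd15 (1.28, larger than that of 99.1% of probe sets). snai2.L was loose with all 3 mRNAs (2.04), an SD larger than that of 99.6% of probe sets in that group. Its SD in the arrays labelled kctd15 (0.21) is read near the lowest values of the table and says little of its spread. Over the 12 arrays, which lie in 4 groups and so mostly repeat the group differences, Pearson's r between the genes was 0.857 and Spearman's rho 0.832. For deviations from the group means r was 0.189, over the same 12 arrays.

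snai2.S, the homeolog of snai2.L, was at 7.07, 6.43 and 5.44 with lacZ and at 7.69, 6.21 and 7.16 with wnt3a+chordin, groups that overlapped (difference 0.71, SE 0.61, 95% confidence interval -0.63 to 2.05, limma adjusted p = 0.393). It was at 3.86, 4.60 and 4.13 in the arrays labelled kctd15, all below lacZ (-2.11, SE 0.61, adjusted p = 0.066). With all 3 mRNAs it was at 4.03, 6.42 and 5.02, against wnt3a+chordin a difference of -1.87 (SE 0.61, adjusted p = 0.389). With equal weights for all 12 arrays no comparison of snai2.S was called. Its difference between kctd15 and lacZ was called with array weights (-2.20, adjusted p = 0.0272), in a fit of only those groups (adjusted p = 0.0431) and without wnt3a+chordin+kctd15 replicate 1 (adjusted p = 0.0435) or replicate 2 (adjusted p = 0.0297). Its difference between wnt3a+chordin+kctd15 and lacZ was called without the latter array (-1.79, adjusted p = 0.0269). The difference in response between the homeologs was not tested.

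Markers of other cell types were read in the same arrays, with both homeologs of a gene in a list. From lacZ to wnt3a+chordin, where both Snail genes rose, the group mean of epidermal markers went from 12.63 to 9.14, of neural plate markers from 7.33 to 9.98, of notochord and axial mesoderm markers from 5.22 to 6.81 and of endoderm markers from 5.96 to 5.08. The notochord and axial mesoderm list holds chrd.1.S, the probe set of the injected chordin gene, which went from 5.75 to 9.69. That list mean was not computed without it. The part of these marker shifts in the rise of the Snail genes was not tested. Somitic muscle markers (21 probe sets) had means of 4.87, 4.69 and 7.76 in the lacZ arrays and 4.80, 7.19 and 7.16 with wnt3a+chordin. The lacZ array high in muscle, replicate 3, had the highest snai1.S of its group (10.28 against 9.80 and 9.95), but not the highest snai2.L (6.58 against 6.81 and 5.71). Within wnt3a+chordin the array low in muscle, replicate 1, had the highest snai2.L (11.71 against 10.25 and 11.34). Its snai1.S (12.42) lay between those of replicates 2 and 3 (12.53 and 12.20), both high in muscle. lacZ replicate 3 was also highest of its group in neural plate (8.57 against 6.62 and 6.81) and early mesoderm markers (6.51 against 5.17 and 5.62). The same held for notochord and axial mesoderm (6.73 against 4.52 and 4.40) and the other neural crest markers (6.62 against 5.57 and 5.89). Its epidermal mean was the lowest (12.49 against 12.62 and 12.79). The part of muscle or of these other cell types in the Snail values was not tested. In the arrays labelled kctd15, replicate 3 had the highest snai1.S (7.83), the highest notochord and axial mesoderm mean (6.00 against 4.71 and 4.51, 14 markers, 3 of them above the array median against 1 and 1) and the highest muscle mean (5.99 against 5.15 and 4.85). chrd.1.S, which is in the notochord list, was at 9.08 in that array against 5.23 and 4.48. The part of those cells in the snai1.S value of replicate 3 was not tested. With all 3 mRNAs, replicate 2 was highest in muscle (8.28 against 4.94 and 6.27) and early mesoderm (6.45 against 4.93 and 5.33, 27 markers), while replicate 3 was highest in snai1.S (11.81) and snai2.L (8.91). That replicate 3 was also highest in the other neural crest markers (9.09 against 7.39 and 7.13, 10 markers). Neural plate markers were level across that group, at 10.26, 10.30 and 10.33 (14 markers). Epidermal markers ran from 11.04 to 11.70 in the arrays labelled kctd15, below the lacZ arrays, and endoderm markers from 6.76 to 6.94, above the 5.83 to 6.10 of lacZ (16 markers). The endoderm means lay below the array medians (7.17 to 7.28). In replicates 1, 2 and 3, 6, 6 and 7 endoderm markers were above the median with kctd15, and 5, 4 and 4 with lacZ. The epidermal and endoderm shifts go along with the lower snai1.S and snai2.L of the arrays labelled kctd15, and their part in it was not tested.

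**Figure D4:**
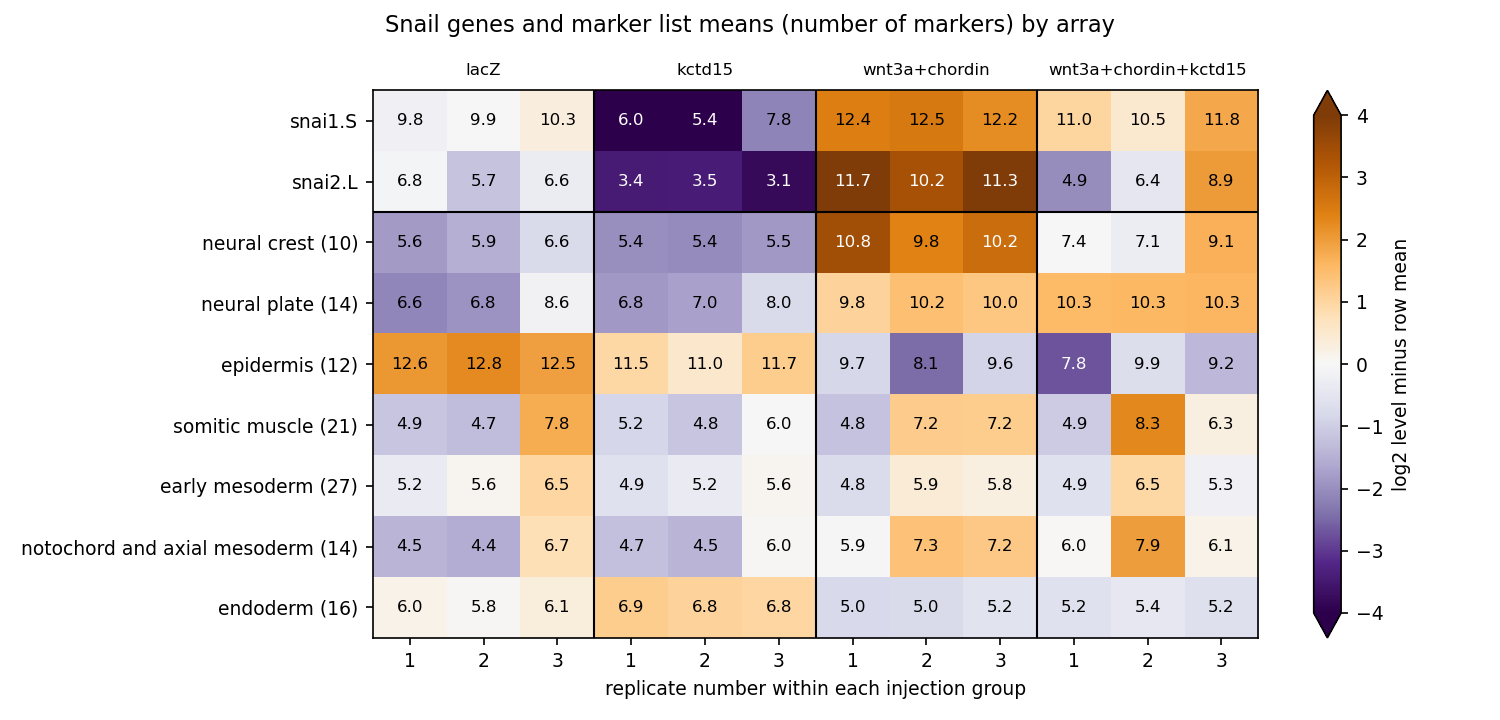
Log2 level in each array (columns, by injection group and replicate number) of snai1.S, snai2.L and the mean of 7 marker lists (rows, number of markers in brackets), coloured by the level minus its row mean. The muscle row is high in lacZ replicate 3 (7.76) and in wnt3a+chordin+kctd15 replicate 2 (8.28).

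Genes whose pattern was most like each Snail gene were ranked by Pearson's r over the 12 arrays among 10819 named genes. For snai1.S the closest was hes4.L (r = 0.986), a transcriptional repressor of the hairy family expressed at the neural plate border, with group means of 11.94 (lacZ), 10.58 (kctd15), 13.29 (wnt3a+chordin) and 12.64 (all 3 mRNAs). It was followed by slit2.S, a guidance ligand (0.977), c17orf75.L (0.977), tgif2.L, a homeobox repressor (0.977), and ptprd.S, a receptor tyrosine phosphatase (0.976). All 5 had, like snai1.S, their lowest mean in the arrays labelled kctd15 and their highest with wnt3a+chordin. This follows from picking them by r over the same arrays and is not a separate result. For snai2.L the closest were ppp1r13l.L, known in mammals as an inhibitor of p53 (0.956), snx18.L, a sorting nexin (0.949), ednra.S, an endothelin receptor of crest cells (0.948), inka1.L, a regulator of p21-activated kinase known in crest (0.947), and bace2.S, an aspartyl protease (0.944). inka1.L had means of 8.99, 6.71, 10.98 and 8.16 in the order above, and this probe set of ednra.S of 4.85, 3.51, 6.65 and 5.24. A different ednra.S probe set, the one with the higher mean, stands in the list of crest specifiers below. Of the 10819 genes, 79 were closer to snai2.L than snai1.S was. By deviations from group means the closest to snai1.S were pced1a.L (0.952), clp1.L (0.929) and mapre2.S (0.921), and to snai2.L tent2.S (0.918), carhsp1.S (0.916) and tmem163.L (0.906). With Spearman's rho 0 of the 5 genes closest to either gene were the same, so the ranking is a description of these arrays.

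Genes around the Snail genes were counted from lists ordered by role, 1 probe set per gene and both homeologs. The share of all probe sets called is set beside each count, and a count near that share is not a result about the list. The first holds genes of the neural plate border and inputs to the Snail genes. With wnt3a+chordin against lacZ, 15 of 32 rose and 5 fell (24.2% and 17.1% of all probe sets), with a list median difference of 0.70 against 0.11 over all probe sets. zic1.S (6.37, SE 0.73), pax3.S (6.36, SE 0.67), both border specifiers known to act upstream of snai2, and tfap2b.L (4.77, SE 0.57), an AP-2 factor, led the rise, and dlx3.S, a homeobox gene of the outer border, fell by 3.32. When kctd15 was added, 0 of 32 rose (limma; 0 at an unadjusted p under 0.05 and 0 with the block) and 3 fell. Of all probe sets 0.142% were called higher and 0.505% lower. The 3 were all Dlx homeobox genes: dlx6.L by 3.50 (adjusted p = 0.0161), dlx5.L by 1.56 (adjusted p = 0.0121) and dlx3.L by 1.51 (adjusted p = 0.014). In the same comparison pax3.S and zic1.S differed by -0.25 and 0.21 (adjusted p = 1 for both). They were 6.12 and 6.58 above lacZ with all 3 mRNAs (limma adjusted p = 5e-05 and 5.45e-05). In the same comparison snai2.L was 0.37 above lacZ (confidence interval -1.43 to 2.18). Its arrays with all 3 mRNAs ran from 4.86 to 8.91. A link between pax3.S or zic1.S and snai2.L was not tested. The other homeolog, pax3.L, was high in lacZ (12.84) and differed by -0.62 with wnt3a+chordin (adjusted p = 0.145; 0.00798 with the block) and by -0.56 with all 3 mRNAs (adjusted p = 0.183; 0.0124 with the block). Between the arrays labelled kctd15 and lacZ, 2 rose and 5 fell (2.68% and 4.31% of all probe sets). The fall was led by gbx2.1.S (-2.70) and gbx2.2.L (-2.48), posterior border homeobox genes, and axin2.L (-1.45), a Wnt target and inhibitor. dlx5.L was among the 2 that rose (1.14, adjusted p = 0.00992). The interaction was negative and called for 3 of 32, dlx5.L (-2.70, adjusted p = 0.00456), dlx6.L (-4.72, adjusted p = 0.0154) and dlx3.L (-1.56, adjusted p = 0.0397). It was positive and called for 1, gbx2.1.S (3.23, adjusted p = 0.0166). Of all probe sets 1.14% had a called interaction. It was not called for dlx3.S, dlx6.S and gbx2.2.L. Between kctd15 and lacZ hes4.L was also among the 5 that fell (-1.35). The other homeologs went the opposite way: axin2.S read 0.44 (adjusted p = 0.37) and hes4.S 0.92 (adjusted p = 0.11, 0.0447 with the block). hes4.L was picked above for its likeness to snai1.S over these same arrays, so the common fall of hes4.L and snai1.S is not a separate result.

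The next list holds genes grouped here as crest specifiers, which do not all follow the Snail genes in these arrays. With wnt3a+chordin 14 of 20 rose and 2 fell (24.2% and 17.1% of all probe sets), with a median of 2.79. foxd3.L (7.17, SE 0.66), foxd3.S (6.90, SE 0.75) and sox9.S (5.69, SE 0.68), early crest transcription factors, led the rise. The genes that fell were kit.L (-4.78) and kit.S (-4.25), copies of a receptor tyrosine kinase. When kctd15 was added, 4 of 20 fell and 1 rose, 2 with the block (0.505% and 0.142% of all probe sets without it), with a median of -1.02 against 0.00. sox9.S (-3.82, adjusted p = 0.0369), sox9.L (-2.64, adjusted p = 0.0239), ets1.L, an ETS factor of crest (-2.64, adjusted p = 0.0399; 0.0532 with the block), and ednra.S (-1.68, adjusted p = 0.00698) fell, and kit.L rose (2.14, adjusted p = 0.0149). Crest transcription factors that were not called included sox10.L (-3.65, adjusted p = 0.328), sox8.L (-2.55, adjusted p = 0.0663; called with the block, 0.0308), foxd3.S (-2.50, adjusted p = 0.309), foxd3.L (-2.39, adjusted p = 0.234) and twist1.L, a bHLH factor of migrating crest (-1.68, adjusted p = 0.144). Also not called were tfap2e.L (-1.12) and zic5.S (-0.21), and mycn.L (0.79) and mycn.S (0.72), which leaned the other way. With all 3 mRNAs mycn.L, mycn.S and zic5.S were above lacZ by 5.32, 5.01 and 5.27. Against lacZ 3 of 20 fell (4.31% of all probe sets) in the arrays labelled kctd15, sox8.L (-2.62), ednra.S (-2.56) and ets1.L (-2.25). In the same comparison 0 rose (limma; 3 at an unadjusted p under 0.05, 0 with the block), where 2.68% of all probe sets were called higher. ets1.L and ednra.S were thus called lower with kctd15 in both settings, ets1.L in induced caps only without the block. Their homeologs ets1.S and ednra.L were called in neither setting. ets1.S read -0.93 in induced caps (adjusted p = 0.69) and -0.64 in plain caps (adjusted p = 0.441). With wnt3a+chordin against lacZ ets1.L was not called (0.10, adjusted p = 0.897). sox9.S and sox9.L were called in induced caps and read 0.42 and 0.98 in plain caps (adjusted p = 0.832 and 0.237). The interaction of sox9.L was called (-3.62, SE 0.60, adjusted p = 0.0232), 1 of 20 in the list. With the block 2 of the list were called higher and 2 lower. Of all probe sets 1.14% had a called interaction without the block.

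Of other regulators of the epithelial to mesenchymal transition 9 were measured, and 5 rose and 3 fell with wnt3a+chordin (24.2% and 17.1% of all probe sets). zeb2.S, a zinc finger repressor of E-cadherin, rose by 4.58 (SE 0.76), and grhl3.L, an epidermal factor, fell by 4.76 (SE 0.89). gfi1b.L, another zinc finger repressor with a SNAG domain, went the other way from snai2.L (-4.05, SE 0.36). When kctd15 was added, 0 of 9 passed (limma; 1 at an unadjusted p under 0.05 and 0 with the block), where 0.647% of all probe sets were called. This count is near that share and is not a result about the list. The smallest p was that of zeb1.L (0.44, adjusted p = 0.487). Between kctd15 and lacZ only gfi1b.L of the list was called (-3.86, adjusted p = 0.000283), in the same direction as snai1.S. In that comparison 6.99% of all probe sets were called.

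A further list holds cofactors of Snail proteins, such as histone deacetylases, the CoREST complex and polycomb proteins, and genes of their turnover. With wnt3a+chordin 16 of its 29 members rose (24.2% of all probe sets), with a median of 0.67. In that comparison 0 fell (limma, 0 at an unadjusted p under 0.05 and 0 with the block), where 17.1% of all probe sets were called lower. Most of the 16 were cofactors. Among genes of turnover cul1.L was called (0.52, adjusted p = 0.0157). fbxl14.S and gsk3b.L were called only with the block (adjusted p = 0.0389 and 0.0336). btrc.S, btrc.L, csnk1a1.L, csnk1a1.S, csnk2a1.S, cul1.S and skp1.L were not called. rcor2.L, a CoREST subunit, rose most (3.35, SE 0.43), followed by rcor1.L (1.68) and prmt5.S, an arginine methyltransferase (1.63). With kctd15 added 0 of 29 passed (limma; 0 at an unadjusted p under 0.05, 1 with the block), where 0.647% of all probe sets were called. This count is near that share and is not a result about the list. Between kctd15 and lacZ only wtip.L, a LIM protein that binds Snail, was called (-0.98, adjusted p = 0.00368). With the block 1 rose and 2 fell in that comparison. Of all probe sets 6.99% were called there without the block and 15.4% with it.

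Epithelial junction genes include known targets of Snail repression. With wnt3a+chordin 14 of 31 fell and 6 rose (17.1% and 24.2% of all probe sets), with a median of -0.42. The gene of E-cadherin, cdh1.S, which is named beyond the fixed rule for its known role, fell by 2.16 (adjusted p = 0.00142), from 11.07 ± 0.20 (SD, n = 3) to 8.91 ± 0.83. krt18.3.L, a simple epithelial keratin (-4.72), and tjp3.L, a tight junction protein (-3.41), fell further, and krt18.1.S rose (3.15, SE 0.93). In the arrays labelled wnt3a+chordin+kctd15, where snai1.S was at 11.09 and snai2.L ran from 4.86 to 8.91, cdh1.S was at 8.44 ± 0.69 (difference from wnt3a+chordin -0.48, adjusted p = 1; from kctd15 -2.99, adjusted p = 0.000177). In the arrays labelled kctd15, where both Snail genes were lowest, cdh1.S was at 11.43 ± 0.05 (difference from lacZ 0.36, adjusted p = 0.73). A link between cdh1.S and the Snail genes was not tested, and other genes of the list went differently. cldn6.1.L (3.05), cldn6.2.L (1.03) and epcam.S (0.53) were among the 6 that rose with wnt3a+chordin. tjp1.S fell between kctd15 and lacZ (-0.81). When kctd15 was added to the inducers, 2 of 31 passed (0.647% of all probe sets), both lower: cldn6.1.L, a claudin (-1.97, adjusted p = 0.0364), and krt8.1.S (-1.13, adjusted p = 0.0459). Between kctd15 and lacZ 5 of 31 fell (4.31% of all probe sets), led by cldn1.S (-5.37). In that comparison 0 rose (limma; 5 at an unadjusted p under 0.05, 3 with the block), where 2.68% of all probe sets were called higher.

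Mesenchymal and migration genes rose in 21 of 46 members with wnt3a+chordin and fell in 3 (24.2% and 17.1% of all probe sets), with a median of 0.51. cdh2.L, N-cadherin (5.21, SE 0.79), pcdh8.L, a protocadherin (5.09, SE 0.58), and epha4.S, an ephrin receptor (3.92, SE 0.65), led the rise. When kctd15 was added 1 of 46 passed without the block and 2 with it (0.647% of all probe sets without it), the former itga5.S, the fibronectin receptor subunit (-1.22, adjusted p = 0.00331), which was also lower in the arrays labelled kctd15 than with lacZ (-1.08). cdh2.L and cdh2.S differed by 0.18 and 0.21 (adjusted p = 1 for both) in that comparison, in which snai2.L fell. A link between the cdh2 genes and snai2.L was not tested. Between kctd15 and lacZ 6 of 46 fell and 1 rose (4.31% and 2.68% of all probe sets). With the block 10 fell and 2 rose, where 15.4% of all probe sets were called in either direction. Apoptosis regulators known to be linked to Snail genes were 6. Of these bak1.S (-1.41) and bid.S (-0.72), which promote cell death, fell with wnt3a+chordin (2 of 6, against 17.1% of all probe sets). With kctd15 0 of 6 passed in either setting (limma; 0 at an unadjusted p under 0.05 and 0 with the block). Of all probe sets 0.647% were called in induced caps and 6.99% in plain caps, so these counts are not a result about the list.

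**Figure D5:**
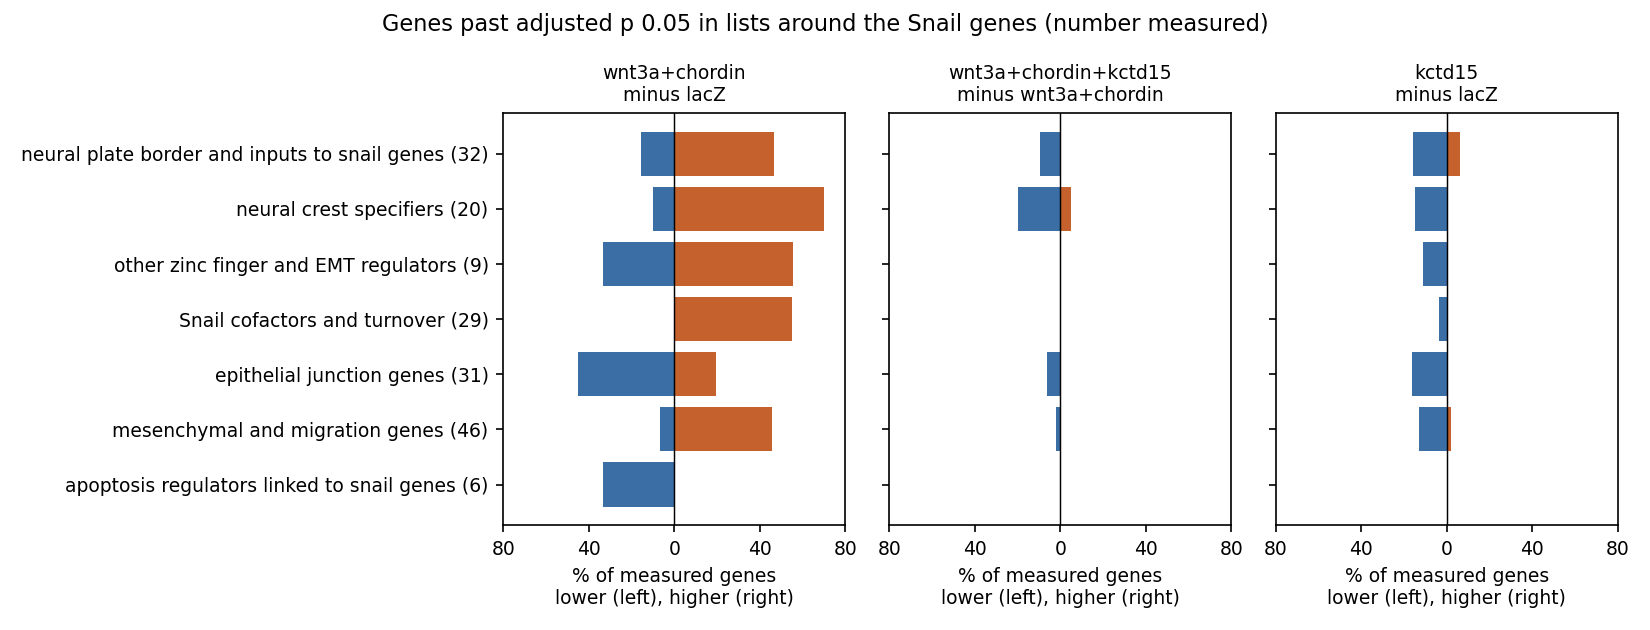
Share of measured genes called lower (left of 0) or higher (right of 0) at an adjusted p under 0.05 in 7 lists of genes around the Snail genes (y axis, number measured in brackets), in 3 comparisons (panels). With the inducers 14 of 20 crest specifiers are higher (24.2% of all probe sets), and with kctd15 added 4 are lower and 1 is higher. In that middle panel 0.647% of all probe sets were called. It has no bar for cofactors, apoptosis regulators and other regulators of the epithelial to mesenchymal transition.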

How the data were processed

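The labels name an Affymetrix 3' in vitro transcription kit and biotin labelling of total RNA. The authors deposited 1 table of log2 expression values per probe set for 12 samples. Partek is named for it, per the submitters' processing notes, without its version. The background step, summarisation, normalization and genome build were not given in the sources used here. Values ran from 2.38 to 15.58 and array medians from 7.17 to 7.28. Arrays have no depth, and their number limits the precision.

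Of 32635 probe sets, 96 controls and 64 reporters were left out, which leaves 32475. Of these 15496 had 1 symbol, 278 several and 16701 none. The identifiers of 15384 were found in the RefSeq table, which gave current symbols. No genome was used.

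All 12 arrays were fitted with 4 group means in limma 3.58.1 (R 4.3.3; lmFit, contrasts.fit, eBayes). Two-sided p values were adjusted by Benjamini-Hochberg over all probe sets in each of 6 contrasts. Response differences between the genes were tested by exact permutation in scipy 1.17.1. The fit was tested on simulated data. The members, gene lists and tests were chosen with earlier results of these data known.

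Replicate numbers come from the sample titles. Deviations from the group means were alike in arrays that share a number (correlation 0.18 to 0.71 over 18 pairs), against -0.51 to 0.10 over 36 pairs with different numbers, so a fit with the number as a block is given beside a Snail gene or a named list gene whose call it changes, and beside a list count that it moves by more than 1.5 times; smaller moves of list counts are left out.

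Genes beyond the members were named by rule: the 5 most alike by Pearson's r and the 3 most alike by deviations, without placeholder symbols. From each list up to 3 called members with the largest difference per comparison were picked, or the one with the smallest p where none was called. Not all of those picked are given in the text. Among those left out for kctd15 minus lacZ are sparc.S (-1.66), itga5.L (-1.49), adam33.L (-1.41), krt18.3.L (-3.46) and cldn6.1.S (-2.79). Genes with other values in the text were named after their values were seen.

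Alternatives were the replicate block, quantile normalization, median centring, array weights, dim probe sets left out, a prior with trend, only the groups compared, 1 probe set per gene, and arrays or replicate numbers left out.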

Additional observations from a re-analysis of the deposited data

How the results depend on the processing

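Each difference of snai1.S and snai2.L kept its direction under quantile normalization, median centring, array weights, a prior with trend, the replicate block, 1 probe set per gene and a fit of only the groups compared. Left without dim probe sets, the table no longer holds snai2.L or snai2.S. snai2.L between kctd15 and lacZ was called with the replicate block (-3.04, adjusted p = 0.0359), array weights (-2.80, adjusted p = 0.0316), the trend (-3.04, adjusted p = 0.0473) and only these groups (-3.04, adjusted p = 0.00677). The replicate block changed no other call of snai1.S or snai2.L. Fitting only the groups compared ended the call of snai2.L between wnt3a+chordin+kctd15 and wnt3a+chordin (-4.36, adjusted p = 0.304) and gave one to snai1.S between wnt3a+chordin+kctd15 and lacZ (1.08, adjusted p = 0.0482). Leaving out lacZ replicate 3 and kctd15 replicate 3 together, chosen after seeing the data, ended the former (-4.36, adjusted p = 0.112) and gave the latter (1.22, adjusted p = 0.0245) and the interaction of snai1.S (2.90, adjusted p = 0.0323). The cause was not tested.

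With single arrays or all 4 arrays of 1 replicate number left out, snai1.S ranged from 2.25 to 2.60 for wnt3a+chordin minus lacZ, from -4.33 to -3.10 for kctd15 minus lacZ, from 0.72 to 1.39 for wnt3a+chordin+kctd15 minus lacZ and from 1.81 to 3.04 for the interaction. snai2.L ranged from -5.45 to -3.12 for wnt3a+chordin+kctd15 minus wnt3a+chordin, from -3.44 to -2.81 for kctd15 minus lacZ, from 2.20 to 4.40 for wnt3a+chordin+kctd15 minus kctd15 and from -0.71 to 1.54, with the sign turned without wnt3a+chordin+kctd15 replicate 3 or all arrays numbered 3, for wnt3a+chordin+kctd15 minus lacZ. The interaction of snai2.S, 0.25, ranged from -0.65 to 0.81. Without all arrays of 1 number, which leaves 2 per group, calls of snai1.S were lost for wnt3a+chordin minus lacZ (number 1, adjusted p = 0.0894) and kctd15 minus lacZ (numbers 1 and 2, adjusted p = 0.127 and 0.0648), and that of snai2.L for wnt3a+chordin+kctd15 minus kctd15 (numbers 2 and 3, adjusted p = 0.056 and 0.0521). The call of snai2.L for wnt3a+chordin+kctd15 minus wnt3a+chordin was lost without any of the 3 numbers (adjusted p = 0.101 to 0.655), and snai1.S was called for wnt3a+chordin+kctd15 minus lacZ without number 3 (0.86, adjusted p = 0.0432). The extra response of snai2.L over snai1.S stayed between 2.06 and 2.86 for the inducers and between -3.80 and -2.18 for kctd15 added to them.

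Counts over all probe sets moved by more than 1.5 times. For wnt3a+chordin+kctd15 minus wnt3a+chordin, 210 were called, 443 with the replicate block, 136 without dim probe sets, 49 with only these groups, 138 without the pair of arrays, and 6 to 200 with arrays left out. For kctd15 minus lacZ it was 2269, 4992 with the block and 409 to 2364 with arrays left out, for the interaction 371, 1063 with the block, 202 without dim probe sets and 0 to 599 (limma), and for wnt3a+chordin minus lacZ 13421 and at least 8562.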
